A study of Caenorhabditis elegans with 2 samples.

Results

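The ceh genes are C. elegans homeobox genes named in numbered order, and 57 of them are described here for contact with ZTF-11, a MYT1-type zinc finger transcription factor. They were taken by name, as the protein-coding genes of the WBcel235 annotation whose symbol is ceh followed by a number. The genes ceh-10, ceh-13, ceh-14, ceh-16, ceh-22 and ceh-36 were set aside by that choice. This left 57 of 19973 nuclear protein-coding genes. The rule uses names alone, but the list of genes was chosen with earlier results of these data known. For each gene a window was taken from 1500 bp upstream of its 5′ end to the end of the gene. The summits of listed regions in that window were read from 4 deposited lists. Of these lists, only the thresholded set was filtered by agreement between the replicates. The pooled list holds peaks together with background, and each replicate list holds 30000 regions.

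The data came from chromatin immunoprecipitation followed by sequencing, which recovers the DNA that a protein sits on. The material was whole L2 larvae, given in the labels as males and females pooled, of strain OP236 with genotype unc-119(ed3) III; wgIs236. This is a single transgenic line that carries ZTF-11 with GFP and FLAG fused at its C terminus. The antibody is labelled with the gene's name only, and the labels do not give the promoter of the transgene. There was 1 group of 2 biological replicates, both of that genotype and stage, without a treatment, and no second condition to compare them with. A whole larva mixes all tissues, so a site held in a few cells and a site held weakly in many cannot be told apart, and no tissue was isolated whose markers could be checked.

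Homeodomain proteins bind DNA through a helix-turn-helix fold and set cell identity, and in C. elegans many of them act as terminal selectors that keep a neuron class in its mature state. MYT1-family zinc fingers are known from vertebrates as repressors that hold back non-neuronal programmes while neurons form, and they recognise a core of AAAGTT. The comparison asks how often, and how strongly, homeobox genes appear in the lists of ZTF-11 regions.

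The sequences at the strongest ceh sites are shown first, since all scores below refer to such places. Each is the ce11 plus strand within 50 bp of a pooled summit, from RefSeq WBcel235. The 8 genes are those with the highest pooled scores outside the one chromosome whose sequence is not printed here. Capitals mark AAAGTT or its reverse complement AACTTT. For ceh-38 the window at its second summit is given, because that at its first lies in a 5′ UTR. The window at that first and higher summit holds no core.
ceh-38, chrII:6951761-6951861: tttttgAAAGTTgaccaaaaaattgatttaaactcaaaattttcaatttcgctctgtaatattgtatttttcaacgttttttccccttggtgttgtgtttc
ceh-88, chrIV:17329365-17329465: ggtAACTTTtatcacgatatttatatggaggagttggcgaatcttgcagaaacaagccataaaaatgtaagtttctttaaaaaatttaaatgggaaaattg
ceh-20, chrIII:6978948-6979048: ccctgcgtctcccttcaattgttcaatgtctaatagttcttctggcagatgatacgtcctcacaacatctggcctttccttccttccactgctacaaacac
ceh-34, chrV:5317793-5317893: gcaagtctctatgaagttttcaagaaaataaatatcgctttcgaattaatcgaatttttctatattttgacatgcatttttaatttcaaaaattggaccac
ceh-18, chrX:3856042-3856142: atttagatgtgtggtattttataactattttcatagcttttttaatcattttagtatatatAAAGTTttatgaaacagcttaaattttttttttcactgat
ceh-60, chrX:6524546-6524646: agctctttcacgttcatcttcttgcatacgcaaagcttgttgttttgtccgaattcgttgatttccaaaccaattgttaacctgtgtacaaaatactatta
ceh-93, chrX:384960-385060: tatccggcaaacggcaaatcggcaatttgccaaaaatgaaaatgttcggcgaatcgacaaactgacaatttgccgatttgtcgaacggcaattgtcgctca
ceh-91, chrIII:11622359-11622459: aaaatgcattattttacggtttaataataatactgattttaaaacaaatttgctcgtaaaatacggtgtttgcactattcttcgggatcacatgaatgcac
Of these 8 windows, those of ceh-38, ceh-88 and ceh-18 held the core once each. Among all nuclear pooled summits 20.1% had the core in such a window, and no count of cores is drawn from these 8 chosen windows. Their GC content ranged from 18.8% at ceh-18 to 46.5% at ceh-20. The windows of ceh-88 and ceh-60 have their summits in coding exons, that of ceh-20 lies upstream of the gene, and the other 5 have summits in introns.

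None of the 57 ceh genes held a peak of the authors' thresholded set. That set has 210 peaks, 188 of them nuclear, and keeps regions by their irreproducible discovery rate (IDR) between replicates. Among all protein-coding genes, 224 (1.12%) had such a peak in the same kind of window, so a count of 0 in 57 lies near that background and its 95% Wilson interval reaches 6.31%. The nearest thresholded summit to any ceh window was 12.1 kb from that of ceh-54, a paired-like gene, with a score of 34.4. The next was 13.2 kb from ceh-23, with a score of 70.3. Of all genes, 5.20% had a thresholded summit closer than 12059 bp. That cut is the lowest ceh distance, so by its choice no ceh gene falls below it. The median distance was 288.3 kb for ceh genes and 232.7 kb for all genes.

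The pooled list also reaches below that threshold and has 20223 regions, peaks together with background. In it 31 of the 57 genes held at least 1 summit (54.4%, 95% Wilson interval 41.6 to 66.6), against 51.3% of all protein-coding genes. In replicate 1 the count was 40 of 57 (70.2%), against 66.5% of all genes. In replicate 2 it was again 40 of 57, against 66.3%. In each list the members' share lay near the share of all genes, and the intervals cover counting error only. A total of 7 ceh genes had no summit in any list: ceh-7, ceh-31, ceh-41, ceh-54, ceh-81, ceh-82 and ceh-84. This is 12.3% of the ceh genes, against 15.8% of all genes. The pooled list and both replicate lists all had a summit in the windows of 25 ceh genes (43.9%), against 38.5% of all genes.

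The median score at these summits lay near that of all genes, and every score lay under those of the nuclear thresholded peaks. A score is the signal value that the authors gave a region, and its scale was not stated. The highest pooled score per gene had a median of 13.1 over the 31 ceh genes with a summit, and ranged from 9.25 at ceh-48 to 28.4 at ceh-38. Over all genes with a summit the median was 12.8. The lowest nuclear peak of the thresholded set scored 32.9, so even the ceh-38 summit stood under it. A score of 15 or more was reached by 9 ceh genes (15.8%), the same share as among all genes (15.8%). A score of 20 or more was reached by 1 ceh gene (1.75%), ceh-38, and by 5.1% of all genes.

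**Figure D1:**
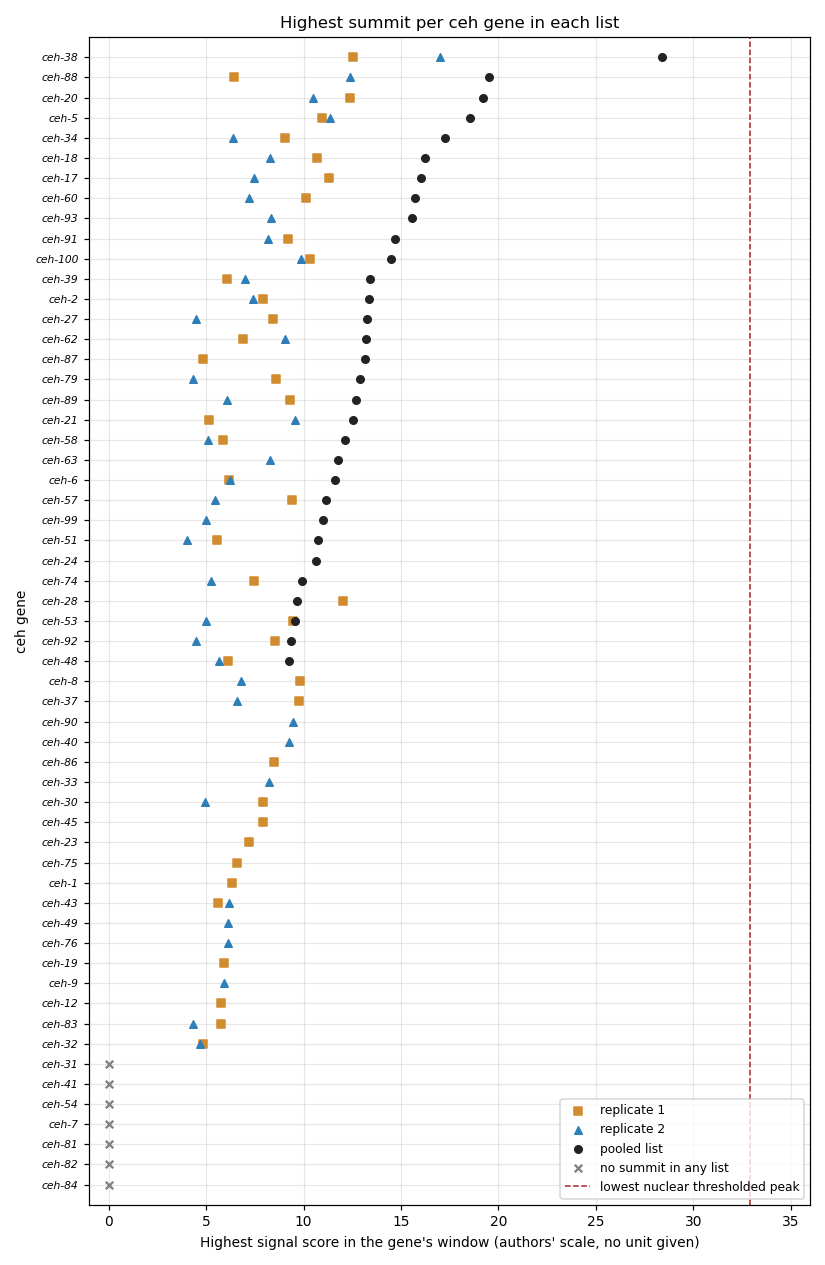
Highest signal score in the window of each of the 57 ceh genes (rows), on the authors' scale, for the pooled list (circles), replicate 1 (squares) and replicate 2 (triangles); a cross marks the 7 genes with no summit in any list. Every circle lies left of the dashed line at 32.9, the lowest nuclear thresholded peak, and ceh-38 comes nearest with 28.4.

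**Figure D2:**
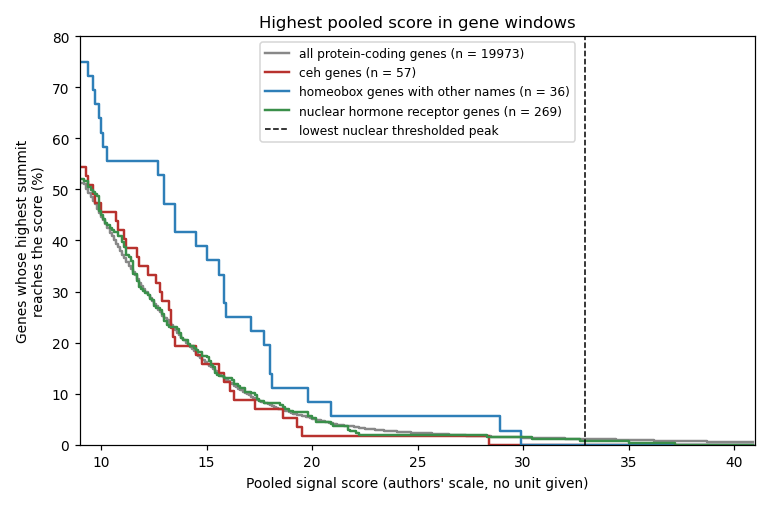
Share of genes (%) whose highest pooled summit reaches the score on the horizontal axis, for 57 ceh genes, 36 homeobox genes with other names, 269 nuclear hormone receptor genes and all 19973 protein-coding genes; the dashed line is the lowest nuclear thresholded peak. The ceh curve starts at 54.4% and runs close to that of all genes, which starts at 51.3%.

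The CUT and ONECUT genes encode proteins with a cut domain beside the homeodomain, and in C. elegans members of the family act together on genes used by all neurons. Of the 6 in the list, 4 had a pooled summit. This and the class counts below stand beside 51.3% of all protein-coding genes. The classes are small and differ in window length, and no class was tested against another. The leading ceh gene belongs here: ceh-38 (WBGene00000459, chromosome II, 6951526 to 6955409, plus strand) had its highest pooled summit at 6951589, in the 5′ UTR, 63 bp inside the gene. Its score of 28.4 ranked 303 of 20223 in the pooled list, and 327 protein-coding genes had a summit at least as high. A region of replicate 2 covered that summit with a score of 16.995, and none of replicate 1 did. The next pooled summit, at 6951811 in an intron, scored 19.04 and lay in regions of both replicates, with 12.5 in replicate 1 and 6.84 in replicate 2. The start of ceh-38 thus had regions in both replicates, but its highest summit lay in a region of replicate 2 only. At the second summit replicate 1 was the higher. Both of these summits also lay in the window of malt-1, which runs next to it.

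Around the other genes of this class the signal was weaker. ceh-39, known as an X-signal element in sex determination, had a pooled summit 7 bp upstream of its 5′ end (13.4, and 6.08 in replicate 1, with no region of replicate 2 over it). The summit of ceh-21 lay 852 bp upstream with a pooled score of 12.5, and replicate 2 was higher there (9.56) than replicate 1 (5.15). These genes stand side by side with ceh-41 on chromosome X, within 9.56 kb from 1846608 to 1856172, and ceh-41 itself had no summit. ceh-48 had a pooled score of 9.25 at 1354 bp upstream. ceh-49 had summits in replicate 2 alone, up to 6.14.

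The TALE genes of the PBC group encode relatives of Pbx and Extradenticle, the partners with which Hox proteins bind DNA. Of 3 genes, ceh-20 and ceh-60 had pooled summits. ceh-20 (WBGene00000443, chromosome III, 6979884 to 6981785) had one at 886 bp upstream with a pooled score of 19.2, covered in both replicates with 12.4 in replicate 1 and 7.75 in replicate 2. Another lay 120 bp upstream of the gene with a pooled score of 16.1 and was covered in replicate 2 (10.5) but not in replicate 1. ceh-20 was one of 3 ceh genes to exceed a pooled score of 19. ceh-60 (WBGene00017690, chromosome X, 6522596 to 6530146), which acts on yolk protein genes in the intestine, had its highest pooled summit in a coding exon (15.7, and 7.20 in replicate 2). Its other summit was in the 3′ UTR (12.7, and 10.1 in replicate 1). Neither ceh-60 summit was shared by both replicates. ceh-40 had a single summit, in replicate 2, at 9.27.

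The sine oculis and POU classes hold 3 and 2 genes. Of the sine oculis genes, ceh-34 (WBGene00000455, chromosome V, 5315496 to 5319577), which sets the identity of pharyngeal neurons, had a pooled summit in an intron with a score of 17.3, in regions of both replicates that scored 5.10 and 6.38. Its neighbour ceh-33 had summits in replicate 2 alone, up to 8.23, and ceh-32, a gene of head development, had 4.82 in replicate 1 and 4.68 in replicate 2, in regions that do not overlap. Of the POU genes, ceh-18 (WBGene00000441, chromosome X, 3843367 to 3857797), which acts in the gonadal sheath, had 6 pooled summits, all in introns, from 9.44 to 16.2. The highest was in a region of replicate 1 (10.7) and not of replicate 2, while those at 12.4 and 11.4 were in both. ceh-6, a gene of the excretory cell and of neurons, had pooled summits of 11.6 and 9.24, both more than 1 kb upstream.

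Among 6 paired-like genes, ceh-17 and ceh-53 had pooled summits. ceh-17 (WBGene00000440, chromosome I, 4568765 to 4570027), the ortholog of Phox2 that is needed in the ALA and SIA neurons, had a summit 215 bp upstream with a pooled score of 16.01, in regions of both replicates (4.94 and 7.46). A second summit at 1003 bp upstream had a pooled score of 11.1 and 11.3 in replicate 1, and no region of replicate 2. At ceh-53 the pooled score was 9.56. ceh-37, of the Otx group, had 5 summits in replicate 1 and 5 in replicate 2 but none in the pooled list, and ceh-8 had up to 9.82 in replicate 1 and 6.79 in replicate 2, with no summit of either inside a region of the other. ceh-45, related to Goosecoid, had summits in replicate 1 alone, up to 7.90.

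Of 15 NK-like and other Antennapedia-superclass genes, 6 had a pooled summit. The highest was ceh-5 (WBGene00000430, chromosome I, 9727169 to 9728034), with a pooled score of 18.5 at 598 bp upstream, and 10.95 in replicate 1 and 11.3 in replicate 2. Those replicate scores were the closest to each other among the shared ceh sites above a pooled score of 15. By rank, 8.46% of the replicate 1 list and 3.45% of the replicate 2 list stood at or above them. The ceh-5 site also lay in the window of ocrl-1. The others were ceh-2 (13.4, 3 bp inside the gene), ceh-27 (13.2, 149 bp upstream), ceh-51, which acts in mesoderm (10.7, 209 bp upstream), ceh-24 (10.6) and ceh-28, a gene of the M4 pharyngeal neuron (9.68). ceh-28 had a score of 12.02 in replicate 1, with 5.35% of that list at or above it, and no region in replicate 2. Its pooled summit had 87.6% of the pooled list at or above it. ceh-1, ceh-12, ceh-19 and ceh-23 had a summit in replicate 1 alone, from 5.74 to 7.19, and ceh-9 in replicate 2 alone (5.92). ceh-30, which acts on survival of male-specific CEM neurons, had 7.91 and 4.96 in the replicates, ceh-43, of the Distal-less group, had up to 5.60 and 6.18, and neither had a pooled summit.

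The other 22 ceh genes were not put in a class, and 14 of them had a pooled summit, beside 51.3% of all genes. ceh-88 (WBGene00008195, chromosome IV, 17329188 to 17332435) was second among all ceh genes, with 19.5 in a coding exon 227 bp inside the gene, and 12.4 in replicate 2 without a region of replicate 1 over the summit. ceh-93 reached 15.6 and ceh-91 14.7, each in an intron and each in a region of 1 replicate. ceh-100, whose window of 23.003 kb is the longest, had 7 pooled summits from 9.60 to 14.5. Its summits at 169 and 754 bp upstream were in both replicates, and the 5 inside the gene were each in 1. The remaining pooled scores in this set were 13.2 at ceh-62, 13.1 at ceh-87, 12.9 at ceh-79, 12.7 at ceh-89, 12.1 at ceh-58, 11.7 at ceh-63, 11.1 at ceh-57, 11.02 at ceh-99, 9.92 at ceh-74 and 9.35 at ceh-92. ceh-75 and ceh-86 had summits in replicate 1 alone, ceh-76 and ceh-90 in replicate 2 alone, and ceh-83 in both, with no summit of either inside a region of the other.

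The replicates shared few ceh sites. A summit of 1 replicate lay in a region of the other in 14 of 57 genes (24.6%), against 21.4% of all protein-coding genes. A pooled summit lay in regions of both replicates in 14 of 57 (24.6%), against 19.6% of all genes. The genes of the second count were ceh-5, ceh-17, ceh-18, ceh-20, ceh-21, ceh-34, ceh-38, ceh-51, ceh-58, ceh-62, ceh-79, ceh-89, ceh-91 and ceh-100, and in the first ceh-37 took the place of ceh-34. At ceh-51 the shared regions scored 4.74 in replicate 1 and 4.04 in replicate 2, near the lowest scores of those lists (4.72 and 3.90). The first count depended on what was taken as shared, also against the background. It was 6 of 57 (10.5%) when summits had to lie within 100 bp of each other, against 15.1% of all genes, and 25 of 57 (43.9%) when regions had only to share 1 bp, against 29.7%. The ceh share was thus below that of all genes under the first rule and above it under the second. The second count was 9 (15.8%, against 14.9%) and 18 (31.6%, against 24.8%). With each summit given to its nearest gene, the second count was 11 of 57, against 15.3% of all genes.

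Counted by summit, the ceh windows held 60 distinct pooled summits, of which 17 lay in regions of both replicates (28.3%), 24 in replicate 1 only, 17 in replicate 2 only and 2, at ceh-6 and ceh-92, in neither. Over all nuclear pooled summits the portion in both was 25.3%. Of 95 ceh summits of replicate 1, 15 (15.8%) lay in a region of replicate 2, against 17.4% of all its nuclear summits. Of 95 ceh summits of replicate 2, 16 (16.8%) lay in a region of replicate 1, against 18.5%. By this count the ceh share was the lower. At the 17 shared sites replicate 1 scored from 4.74 to 12.5 and replicate 2 from 4.04 to 11.3. Replicate 1 was the higher at 8 of them and replicate 2 at 9, and the ratio of replicate 1 to replicate 2 ran from 0.54 to 1.87 with a median of 1.00. Over all nuclear pooled summits in both lists the ratio ran from 0.25 to 13.6 with a median of 1.201, so in both sets each replicate was the higher at some sites. With 2 replicates and 17 sites no test of that difference was made. The replicate lists also differ in score level, with nuclear medians of 6.62 in replicate 1 and 5.58 in replicate 2.

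Most ceh summits lay upstream of the genes or in introns, as did most summits over all genes and most bases of the ceh windows. Of 61 pairs of a gene and a pooled summit, 22 (36.1%) lay upstream of the gene, 24 (39.3%) in introns, 6 (9.84%) in coding exons, 5 (8.20%) in 3′ UTRs and 3 (4.92%) in 5′ UTRs. Upstream sequence made up 30.02% of the ceh windows, introns 42.96% and coding exons 20.04%. Over all protein-coding genes 36.03% of pairs were upstream, 42.6% in introns and 14.2% in coding exons. The upstream ceh summits lay from 7 to 1401 bp from the 5′ end, with a median of 649 bp, and 9 of 22 were within 500 bp. Of the 60 distinct summits, 16 also lay in the window of another protein-coding gene, and these cannot be given to one gene. The summit shared by ceh-57 and ceh-58 is one of them, as are upstream summits of ceh-21, ceh-51, ceh-89 and ceh-100. Of the 22 upstream summits, 10 lay in such a window. Over all protein-coding windows 15883 distinct pooled summits made 18968 pairs with genes, and those in more than 1 window were not counted.

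**Figure D3:**
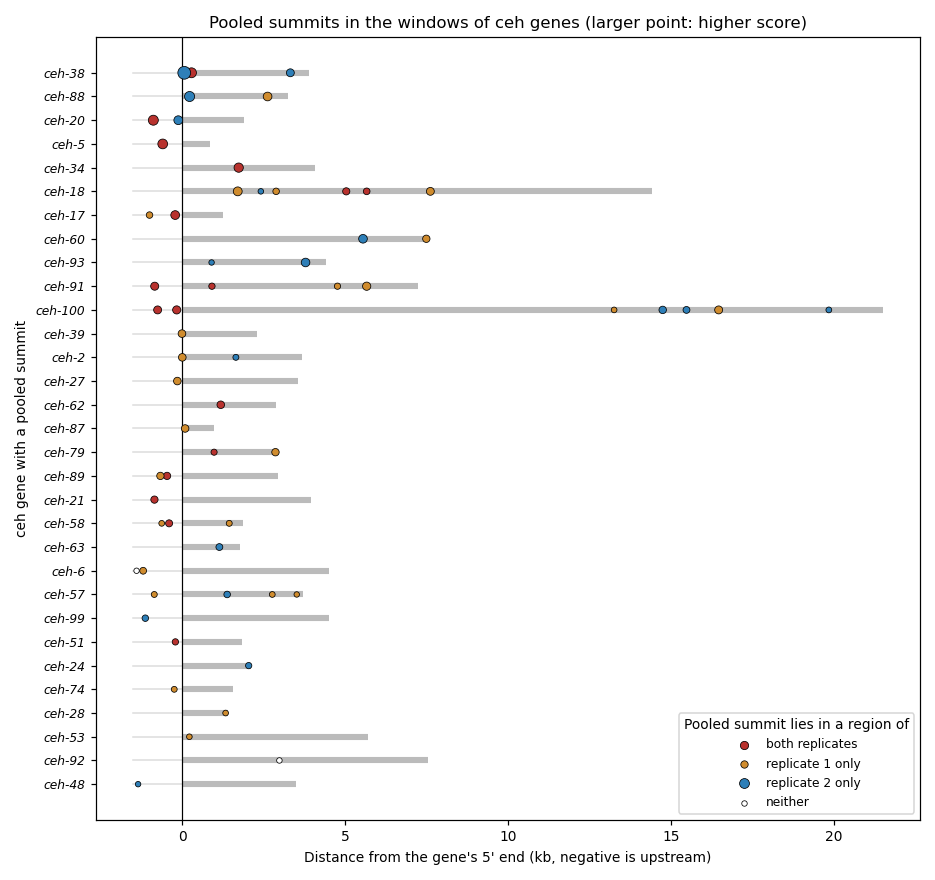
Pooled summits along the 31 ceh genes that had any, by distance from the 5′ end in kb (negative is upstream); grey bars are gene bodies, point size grows with the score and colour gives the replicates whose regions hold the summit. Sites in both replicates number 17 of 60, and those of ceh-5, ceh-17 and ceh-20 lie upstream of the gene.

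Window length went with the number of summits. The ceh windows were from 2.02 kb (ceh-7) to 23.003 kb (ceh-100) long, with a median of 4.14 kb, against 3.53 kb for all genes. Across the 57 genes, which share the libraries and are not replicates, Spearman's rho of window length and number of pooled summits was 0.43, and over all protein-coding genes it was 0.44. Longer windows take in more summits wherever these fall, so counts were also set per length. The ceh windows had 0.21 pooled summits per kb and all protein-coding windows had 0.20. In replicate 1 the densities were 0.34 and 0.30, and in replicate 2 they were 0.34 and 0.30.

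**Figure D4:**
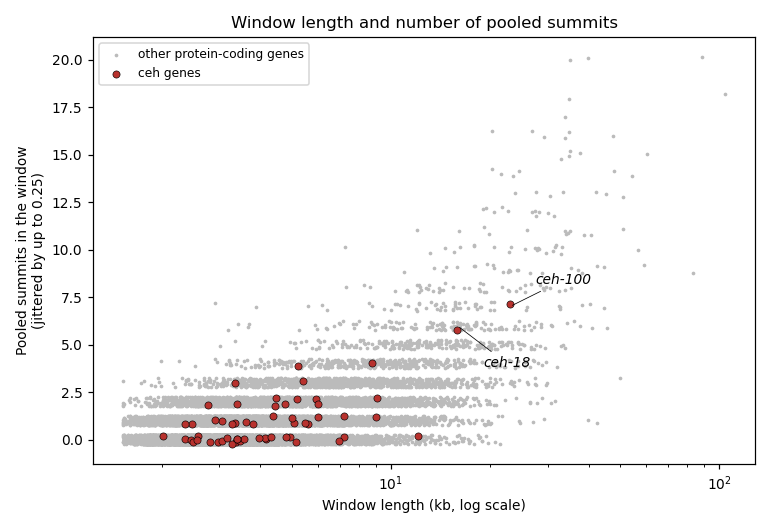
Number of pooled summits in the window of each protein-coding gene against window length in kb (log scale), with the 57 ceh genes in red and points jittered vertically. The ceh genes lie within the cloud of the other genes, and the longest windows, of ceh-100 and ceh-18, hold 7 and 6 summits.

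By chromosome, X carried 16 of the 57 genes, II 13, V 11, I 8, III 5 and IV 4. A pooled summit was found in 8 of 16 on X, where 54.3% of all genes had one, and in 7 of 13 on II, where 46.1% had. Among the runs of neighbouring ceh genes, ceh-81, ceh-82 and ceh-83, within 6.13 kb on chromosome II, had no pooled summit among them, and ceh-30 with ceh-31, within 6.85 kb on X, had none. ceh-57 and ceh-58, within 6.01 kb, had 7 in the stretch that takes in 1500 bp on either side, and the highest in their own windows scored 12.1.

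The core AAAGTT, searched on both strands, was present within 50 bp of 13 of the 60 ceh pooled summits (21.7%, 95% Wilson interval 13.1 to 33.6). It was present at 20.1% of all nuclear pooled summits and in 18.6% of 101-bp tiles laid end to end over the ceh windows. The 13 summits belonged to 12 genes and scored from 9.26 to 19.5, and the highest ceh summit, that of ceh-38, had none. The mean GC content was 32.9% ± 7.97 (SD over 60 summits) around ceh summits, 33.6% ± 9.25 around all nuclear pooled summits and 35.1% ± 8.83 in the tiles of the ceh windows. A match is a string in the window and does not show a site of contact.

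Homeobox genes that carry other names were read in the same way. Of 36 such genes, among them the Hox genes lin-39 and mab-5 and the neuron identity genes unc-86 and ttx-3, 27 had a pooled summit (75%, 95% Wilson interval 58.9 to 86.2, beside 54.4% of ceh genes) and 0 had a thresholded peak. Their windows are longer, with a median of 5.84 kb, and held 0.25 pooled summits per kb. The highest were pal-1, the Caudal gene (29.8 pooled, with no pooled summit in both replicates), and lin-39 (28.8, with a site in both), so ceh-38 at 28.4 came next among the homeobox genes read here. Of the 6 ceh genes set aside by the choice, 4 had a pooled summit, the highest at ceh-16, the engrailed gene (17.3). Of 269 nuclear hormone receptor genes, another large transcription factor family, 140 (52.0%) had a pooled summit, at 0.21 per kb. No test was made between these groups, which differ in window length and were listed with earlier results of these data known.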

How the data were processed

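ZTF-11 chromatin immunoprecipitation and sequencing of L2 larvae was read from the authors' lists of regions on ce11. Per the labels and the deposited text notes, the lists derive from alignments of 1 replicate, or of both pooled, together with a control. The thresholded set derives from those 3 lists by IDR. The sources used here do not give the aligner, peak caller or IDR cutoff. The deposited score is each region's own value on an unstated scale, and the lists give no read counts, so depth is unknown. The deposited lists have 30000 regions for each replicate, 20223 pooled and 210 thresholded, and nearly all regions of a list share a width (376 bp pooled, 350 bp in replicate 1, 316 bp in replicate 2).

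Genes came from Ensembl release 115 on WBcel235, which has the coordinates of ce11, and no region passed a chromosome end. The deposited ce10 lists were not used. A gene counted when a summit lay in its window, and a site was shared when the summit of one list lay in a region of another. The lists of genes were chosen with earlier results of these data known, so all comparisons are descriptions without a test. The rule for naming genes took the 25 of highest pooled score, those with a site in all 3 lists and those with no summit, and the report extends it to all 57. The classes follow common homeobox groups; ceh-44, put in the CUT class at first, has no gene of that name in the annotation. The list of other homeobox genes holds psa-3 and npax-1, whose homeodomain was not checked. The nuclear hormone receptor genes were added for comparison after values were seen. Window counting was tested on simulated data with planted summits. Alternatives covered window, gene assignment, score, overlap and each replicate alone. Tools were matplotlib 3.10.9, scipy 1.17.1, pandas 2.3.3 and numpy 2.4.6 under Python 3.11.15.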

Additional observations from a re-analysis of the deposited data

How the results depend on the processing

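Of 57 values recomputed under other settings, 41 stayed close to the reported ones. Close meant within 1.5 times for counts and densities and within the 95% Wilson interval for shares. For the median score it meant within the SD of both replicate medians (1.02). That SD comes from replicate scores, which differ in level from pooled ones, and does not measure the spread of the pooled median. The count of ceh genes with a thresholded peak was 0 in each window tried and with each summit given to its nearest gene. With regions at or above each list's median score, 25 genes had a region in replicate 1 (43.9%, all genes 44.5%), 6 had a site in both replicates (10.5%, all genes 9.47%), 6 had a site in all 3 lists (10.5%, all genes 8.98%), the median highest score was 14.5 (all genes 14.9) and the density was 0.121 per kb (all genes 0.1004). With summits within 100 bp, 6 genes had a site in both replicates (10.5%, all genes 15.1%) and 9 a site in all 3 lists (15.8%, all genes 14.9%). With regions that share 1 bp, 25 had a site in both (43.9%, all genes 29.7%). The upstream share was 18.75% with 500 bp upstream, 50% with 3000 bp and 78.6% in a promoter window of 1500 bp before and 500 bp after the 5′ end (19.4%, 50.6% and 79.7% of all genes' summits), so it follows the window. Within 25 bp of the summit the core was present at 10% (10.5% of all nuclear pooled summits). With either replicate left out, the median highest score ranged from 6.48 to 7.92, on the scale of a single replicate, and the density was 0.34 per kb in both cases, from lists of 30000 regions. No paired analysis was possible because there is 1 group. Depth is unknown, so how far it limits the lists cannot be said, and the lists hold no value below their own lowest scores, 9.17 pooled, 4.72 in replicate 1 and 3.90 in replicate 2.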

Other observations

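Of the ceh pooled summits, 48.3% lay in sequence that RefSeq prints in lower case, which marks repeats and low-complexity stretches. This held for 29 of the 60, against 44.5% of all nuclear pooled summits and 34.6% of the bases of the ceh windows. In replicate 1 it was 40% at ceh summits, against 40.1% of all nuclear summits of that list, and in replicate 2 it was 40%, against 42.1%. The part of such sequence in these scores was not tested.

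Several ceh genes had a summit near the top of the ceh order in 1 replicate and no summit in the other. In replicate 1 the third highest ceh summit was in the 3′ UTR of ceh-28 (12.02), with no summit of replicate 2 in that window. In replicate 2, ceh-90 (9.46) and ceh-40 (9.27) each had an intronic summit and no summit in replicate 1 or in the pooled list. At ceh-37, whose window of 12.1 kb is the third longest, each replicate had 5 summits and the pooled list none.

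A gene that is not protein-coding lay within 500 bp of 8 of the 60 ceh pooled summits (13.3%), against 18.4% of all nuclear pooled summits. These 8 were at ceh-6, ceh-18, ceh-27, ceh-39, ceh-48 and ceh-99. Near the ceh-99 summit at 1132 bp upstream were the microRNA gene mir-77 and a small nucleolar RNA gene, T21B4.20, and its pooled score was 11.02. The summits upstream of ceh-6 lay beside linc-113, a long intergenic noncoding RNA gene, with pooled scores of 11.6 and 9.24.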
